A study of Mus musculus with 6 samples.

Results

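The mitochondrial genome of the mouse encodes 13 proteins of the respiratory chain. The mRNAs for 10 of them were followed here in bone marrow-derived macrophages (BMDMs): *mt-Nd1*, *mt-Nd2*, *mt-Nd4*, *mt-Nd5*, *mt-Nd6*, *mt-Cytb*, *mt-Co1*, *mt-Co2*, *mt-Co3* and *mt-Atp6*. They were taken as a named list, each with the sum of the estimated counts over its transcripts, and all 10 were among the 18514 genes tested of 36186 genes with a matched transcript. RNA-seq compared 3 WT with 3 *Drp1* KO libraries. WT cells came from mice that carry Cre recombinase at the lysozyme M locus and unaltered alleles of *Drp1* (LysM-Cre+/- Drp1+/+). *Drp1* KO cells came from LysM-Cre+/- Drp1 fl/fl mice, in which the same Cre, active in myeloid cells, removes the floxed segment of *Drp1* (gene symbol *Dnm1l*), the GTPase that divides mitochondria. Both groups thus carried the Cre, and mice of both sexes were 8 to 12 weeks old. The dams of the WT mice, which pass on the mitochondrial DNA, are not given in the sources used here. If they differed from those of the *Drp1* KO mice, maternal descent and genotype cannot be told apart. All cells were differentiated for 7 days with medium conditioned by L929 cells and then kept for 8 hours in hypoxia without serum (HSS; 2.1% oxygen in the labels), so that no library shows cells in normal oxygen. Marrow of 2 mice was pooled per genotype. The titles call the libraries biological replicates, but whether each is a pool of its own is not given in the sources used here, and if they share a pool, p-values measure a spread that may be partly technical.

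Mitochondrial DNA is transcribed from both strands into long precursors, which are cut at the tRNAs that lie between most mRNAs. Most of the mRNAs are then tailed with adenosines. The libraries held poly(A)-selected RNA, so that an mRNA with a shorter tail may be captured less. Tail lengths, also that of *mt-Nd6*, were not measured. Of the 10 mRNAs, 9 are on the reference strand, and *mt-Nd6* is on the opposite strand, in the transcript of the light strand. The products are hydrophobic core subunits: *mt-Nd1*, *mt-Nd2*, *mt-Nd4*, *mt-Nd5* and *mt-Nd6* of complex I (NADH dehydrogenase), *mt-Cytb* of complex III (cytochrome bc1), *mt-Co1*, *mt-Co2* and *mt-Co3* of complex IV (cytochrome c oxidase), and *mt-Atp6* of complex V (ATP synthase). The other subunits of these complexes are encoded in the nucleus, so that the respiratory chain needs both genomes.

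A segment of mitochondrial DNA was also inserted into chromosome 1 of the mouse nucleus, and the annotation lists pseudogenes there that carry the same sequence as the mRNAs. This bears on every value of *mt-Co2*, *mt-Atp6* and *mt-Co3*. The pseudogene *Gm28661* equals bases 1 to 681 of the 684 bases of *mt-Co2* (GRCm39, chrM:7013-7696, plus strand), *Atp6-ps* equals bases 1 to 678 of the 681 of *mt-Atp6* (chrM:7927-8607), and *Gm28437* equals bases 1 to 783 of the 784 of *mt-Co3* (chrM:8607-9390). The last 40 bases of these 3 mRNAs are printed because they hold the whole difference from the nuclear copies. Capitals mark the bases that the copy lacks.
mt-Co2: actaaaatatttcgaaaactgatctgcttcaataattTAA
mt-Atp6: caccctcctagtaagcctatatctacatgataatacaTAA
mt-Co3: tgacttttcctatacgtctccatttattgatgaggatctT
The copies of *mt-Co2* and *mt-Atp6* end just before the stop codon. *mt-Co3* ends in a lone T, as *mt-Nd4* and *mt-Cytb* do, and the poly(A) tail completes its stop codon. Of all 31-base words in each mRNA, the share that also occurs in a nuclear transcript was 100% for *mt-Co2*, 99.9% for *mt-Co3*, 99.5% for *mt-Atp6*, 63.9% for *mt-Co1* and 62.8% for *mt-Nd4*. It was 16.8% for *mt-Nd5*, 13.5% for *mt-Nd2*, 7.36% for *mt-Nd6*, 6.55% for *mt-Cytb* and 0% for *mt-Nd1*. Reads of the first 3 genes therefore cannot be told apart from reads of their copies, and their values are uncertain, while those of *mt-Nd1*, *mt-Nd2*, *mt-Nd5*, *mt-Nd6* and *mt-Cytb* rest mostly on sequence of their own.

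Neighbouring mRNAs also overlap. The stretch shared by *mt-Atp8* and *mt-Atp6*, which lie on a single transcript, is 43 bases long (chrM:7927-7969). The ends of *mt-Nd5* and *mt-Nd6* overlap on opposite strands over 14 bases (chrM:13552-13565). Both are shown for the genes they tie together. The first overlap ties *mt-Atp6* to a gene with few matches in annotated nuclear transcripts. The second ties *mt-Nd6* to a gene of the other strand. Capitals mark the shared or facing bases at the end of each mRNA.
mt-Atp8: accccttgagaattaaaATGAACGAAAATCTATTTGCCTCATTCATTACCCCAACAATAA
mt-Nd5: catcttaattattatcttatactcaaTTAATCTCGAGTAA
mt-Nd6: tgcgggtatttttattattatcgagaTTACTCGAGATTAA
The first 60 bases of *mt-Nd5* and *mt-Nd6* show the difference in composition between the strands. Here capitals mark the start codon.
mt-Nd5: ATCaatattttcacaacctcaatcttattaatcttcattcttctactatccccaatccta
mt-Nd6: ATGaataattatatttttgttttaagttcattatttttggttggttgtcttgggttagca
*mt-Nd6* was 43.7% T, 28.1% G and 5.97% C, while *mt-Nd5* was 34.3% A, 27.1% C and 9.98% G. The labels name a stranded mRNA kit, while the study's methods name a kit of the same maker without calling it stranded, and the strand setting of the read assignment is not given. Without strand, reads of *mt-Nd6* (chrM:13552-14070, minus strand) and reads from the other strand there could not be told apart.

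The 10 mRNAs differed widely in abundance. Per length, in the deposited TPM, a length-corrected abundance scaled to the same total in each library, *mt-Co1* was highest with a mean of 4075 TPM over the 6 libraries, followed by *mt-Co3* (1260.2 TPM) and *mt-Atp6* (874 TPM). *mt-Nd6* (542 TPM), *mt-Co2* (488 TPM) and *mt-Nd1* (378 TPM) came next. *mt-Nd5* (289 TPM), *mt-Nd4* (280.4 TPM), *mt-Nd2* (131 TPM) and *mt-Cytb* (100.1 TPM) were lowest. *mt-Co1* was above *mt-Co3* in 6 of 6 libraries, and *mt-Nd4* was above *mt-Nd2* and *mt-Nd2* above *mt-Cytb* in all 6 as well. The order of *mt-Nd5* and *mt-Nd4* differed between the groups: *mt-Nd5* was above *mt-Nd4* in the 3 WT libraries and below it in the 3 *Drp1* KO libraries. *mt-Nd6* exceeded *mt-Co2* in 4 of 6 libraries, as *mt-Co2* did *mt-Nd1*. By group, the mean of *mt-Co2* was 749.5 TPM in WT and 227 TPM in *Drp1* KO, and that of *mt-Nd6* was 695 and 390.1 TPM. The place of *mt-Co2*, *mt-Atp6* and *mt-Co3* in this order leaves out the reads given to their copies.

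**Figure D1:**
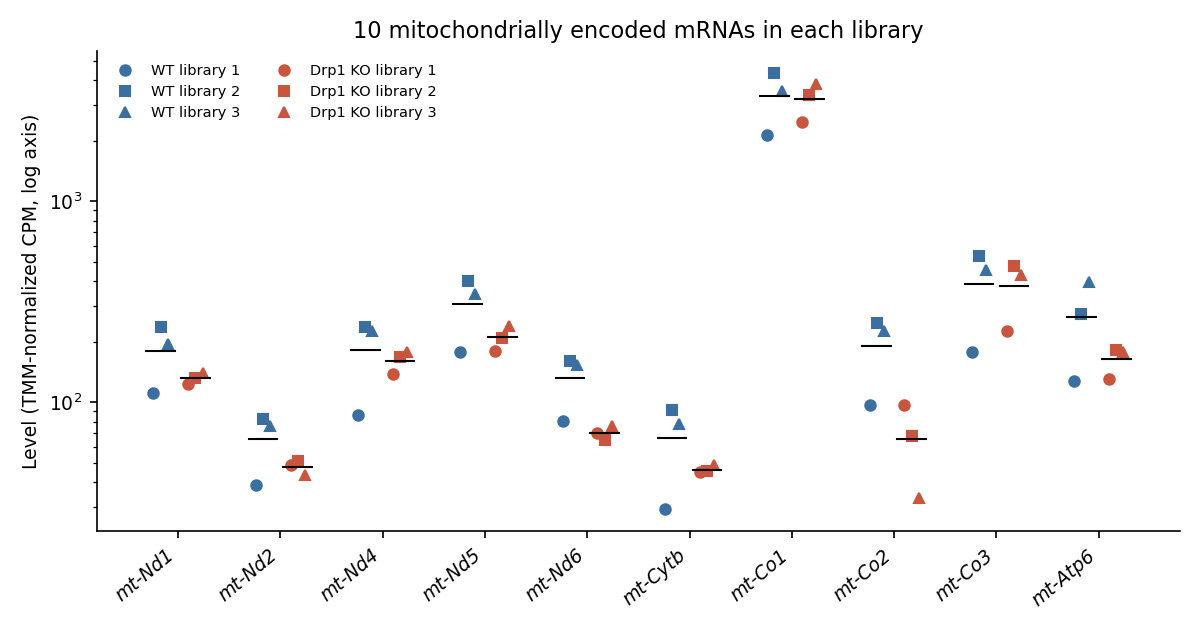
Level of each of the 10 mRNAs in each library, as CPM (counts scaled to library size) after TMM normalization, on a log axis. Symbols are libraries 1 to 3, blue for WT and red for Drp1 KO, and short lines are group means (n = 3). WT library 1 is the lowest WT library for all 10 mRNAs, and it lies below every Drp1 KO library for 8 of them.

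Together the 10 mRNAs took 0.293% to 0.678% of the counts of a library. In CPM, that is counts scaled to library size, after TMM normalization their summed level was 3049, 6619 and 5677 in WT libraries 1 to 3, a mean of 5115 ± 1850 (SD, n = 3). In *Drp1* KO libraries 1 to 3 it was 3541, 4751 and 5208, a mean of 4500 ± 862 (SD, n = 3). The groups overlapped, the highest library was 2.17 times the lowest, and both of these extremes were WT. Within a library number, the log2 difference of *Drp1* KO from WT was 0.22, -0.48 and -0.12, so that its sign was not the same in the 3 pairs. On the log2 scale the groups differed by -0.13, which became 0.094 without WT library 2 and -0.46 without WT library 1. It was -0.34 for the summed deposited TPM and -0.034 with the counts of the nuclear copies added. WT library 1 had the lowest WT level for 10 of 10 mRNAs, and *Drp1* KO library 1 the lowest *Drp1* KO level for 7 of 10. WT library 2 had the highest level of all for 9 of 10, and *mt-Atp6* was highest in WT library 3.

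**Figure D2:**
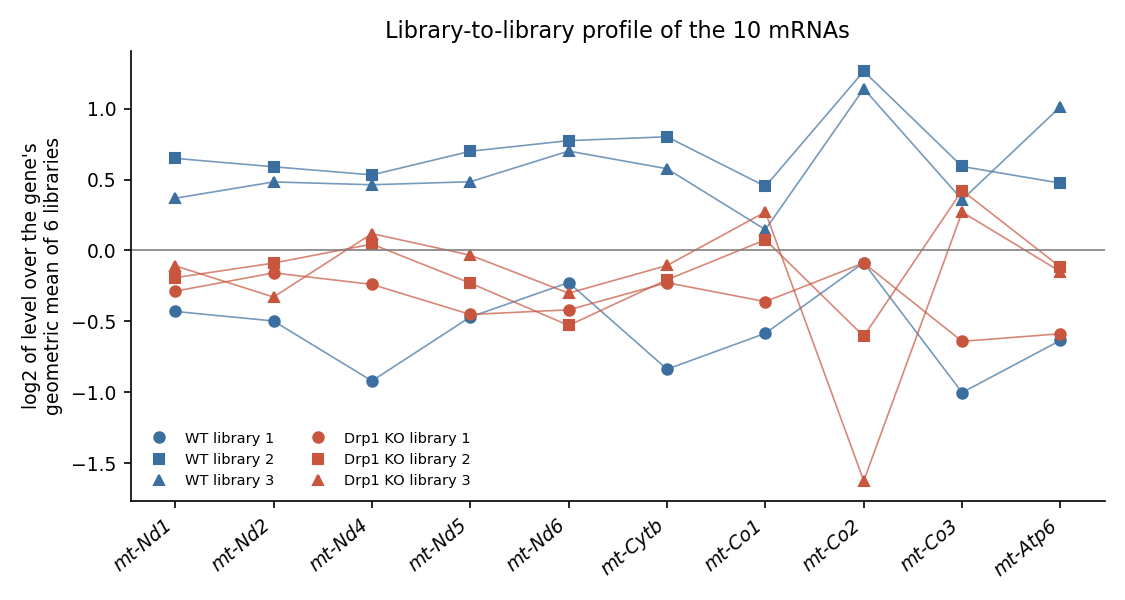
For each library, the log2 of the level of each mRNA over that mRNA's geometric mean of the 6 libraries. Blue lines are WT and red lines Drp1 KO libraries. WT libraries 2 and 3 run above 0 for all 10 mRNAs and WT library 1 below 0, while Drp1 KO library 3 leaves the common course at mt-Co2.

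The comparison of *Drp1* KO with WT asks whether loss of the fission GTPase under HSS went with other levels of these mRNAs. None of the 10 passed at an adjusted p under 0.05 (edgeR's quasi-likelihood test with Benjamini-Hochberg adjustment over all genes), beside 3.36% of all genes tested. DESeq2 called 1 of them, *mt-Nd6*, as lower, beside 3.89% of the genes it tested, and limma-voom none. At an unadjusted p under 0.05 there were 3 members, beside 16.4% of all genes, and the same 3 met the rule of the study's methods, a log2 fold change over 0.32 in size with that unadjusted p, which 5.48% of all genes met as lower. They were *mt-Nd5*, *mt-Nd6* and *mt-Co2*, all lower in *Drp1* KO. The log2 fold changes of the 10 ran from -1.53 to -0.044 with a median of -0.49, and the median of all genes was 0.0046. All 10 were below 0, but with the counts of the nuclear copies added 8 were, and again none passed, beside 3.34% of all genes, and 2 had an unadjusted p under 0.05, beside 16.4% of all genes. With library numbers as pairs, 3 members passed, *mt-Nd5*, *mt-Nd6* and *mt-Co2*, all lower, beside 5.22% of all genes called lower. The groups did not overlap for 2 members, *mt-Nd6* and *mt-Co2*, both lower in *Drp1* KO, beside 10.3% of all genes that were lower without overlap. The calls leaned on WT library 1: without it, 8 members passed as lower (the others were *mt-Co1* and *mt-Co3*), beside 1.20% of all genes. Without both libraries numbered 1, a choice made after the values were seen, the same 8 passed as lower, beside 4.56% of all genes.

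Among the complex I members, *mt-Nd6* had the smallest p of the 10. It encodes a membrane subunit in the proton-pumping arm. Its level in WT libraries 1 to 3 was 80.5, 161 and 153 CPM, and in *Drp1* KO libraries 1 to 3 it was 70.4, 65.2 and 76.4 CPM. All *Drp1* KO libraries were below all WT libraries, although WT library 1 was within a few CPM of *Drp1* KO library 3. The means were 132 ± 44.4 and 70.7 ± 5.58 CPM (SD, n = 3 each). Its log2 fold change was -0.90 ± 0.22 (SE), and the edgeR adjusted p was 0.0541. The gene passed in the paired fit (log2 fold change -0.84, edgeR adjusted p = 0.00735), and by DESeq2 (adjusted p = 0.000832). Over the 19 other settings tried its adjusted p ran from 0.000184 to 0.227.

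*mt-Nd5*, the largest of the mitochondrially encoded complex I subunits, stood at 178, 399.6 and 344 CPM in WT and at 179.9, 209.7 and 240.4 CPM in *Drp1* KO libraries 1 to 3. WT library 1 lay below all 3 *Drp1* KO libraries, and the other WT libraries above them. Its log2 fold change was -0.55 ± 0.24 (SE; edgeR adjusted p = 0.299), and with pairs it was -0.48 (edgeR adjusted p = 0.0477, with a range of 0.00350 to 0.686 over all other settings). *mt-Nd1*, whose product lies where the matrix arm joins the membrane arm and which shares no word with a nuclear transcript, had 112, 236 and 194 CPM in WT and 123, 132 and 139.6 CPM in *Drp1* KO. The 3 *Drp1* KO libraries lay close together, between WT library 1 and the others. Its log2 fold change was -0.46 ± 0.22 (SE; edgeR adjusted p = 0.330).

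*mt-Nd2* and *mt-Nd4* encode antiporter-like subunits of the membrane arm. *mt-Nd2* was at 38.7, 82.2 and 76.3 CPM in WT and at 48.9, 51.3 and 43.5 CPM in *Drp1* KO, a log2 fold change of -0.46 ± 0.23 (SE; edgeR adjusted p = 0.364). *mt-Nd4* was at 86.2, 236 and 225 CPM in WT and at 138, 168 and 177 CPM in *Drp1* KO. Its log2 fold change of -0.18 ± 0.30 (SE) was below its error (edgeR adjusted p = 0.853), and it was 0.038 without WT library 2. For both, WT library 1 was the lowest of the 6.

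*mt-Cytb*, which encodes the subunit of complex III that holds the quinone sites, had 29.3, 91.4 and 78.2 CPM in WT and 44.8, 45.4 and 48.7 CPM in *Drp1* KO. The *Drp1* KO libraries spread by an SD of 2.11 CPM and the WT libraries by 32.7 CPM, so that the groups overlapped through WT library 1. The log2 fold change was -0.52 ± 0.31 (SE; edgeR adjusted p = 0.471).

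In complex IV, *mt-Co1*, the catalytic subunit with the heme and copper site, was the most abundant mRNA of the 10. It stood at 2123, 4356 and 3526 CPM in WT and at 2479, 3354 and 3843 CPM in *Drp1* KO. The groups overlapped throughout, with a log2 fold change of -0.048 ± 0.24 (SE; edgeR adjusted p = 0.967), which was 0.18 without WT library 2 and -0.29 without WT library 1. *mt-Co3*, a core subunit without a metal site, was at 177, 535 and 454 CPM in WT and at 227, 475 and 428 CPM in *Drp1* KO. In both groups library 1 was the low one, and the log2 fold change was -0.044 ± 0.36 (SE; edgeR adjusted p = 0.982).

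*mt-Co2*, whose product receives electrons from cytochrome c, had the most negative log2 fold change of the 10 and also the least certain one. The counts assigned to it gave 97.2, 248 and 227 CPM in WT and 97.0, 67.8 and 33.4 CPM in *Drp1* KO libraries. The groups did not overlap, but libraries 1 of both groups were nearly equal. The log2 fold change was -1.53 ± 0.39 (SE; edgeR adjusted p = 0.0669), and with pairs the gene passed (edgeR adjusted p = 0.0233, with a range of 0.000327 to 0.431 over all other settings). Its copy *Gm28661*, identical to *mt-Co2* up to the stop codon shown above, went the other way. It had 33.6, 39.2 and 47.3 CPM in WT and 54.7, 107 and 154 CPM in *Drp1* KO, a log2 fold change of 1.40 ± 0.30 (SE; edgeR adjusted p = 0.0331). The copy thus took 25.7%, 13.7% and 17.2% of the counts of the pair in WT libraries, and 36.1%, 61.2% and 82.2% in *Drp1* KO libraries, with no overlap. Added together, gene and copy had 131, 287 and 275 CPM in WT and 152, 175 and 187 CPM in *Drp1* KO. The sum overlapped between groups, with a log2 fold change of -0.43 ± 0.24 (SE; edgeR adjusted p = 0.431), and it did not pass with pairs either (edgeR adjusted p = 0.142).

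**Figure D3:**
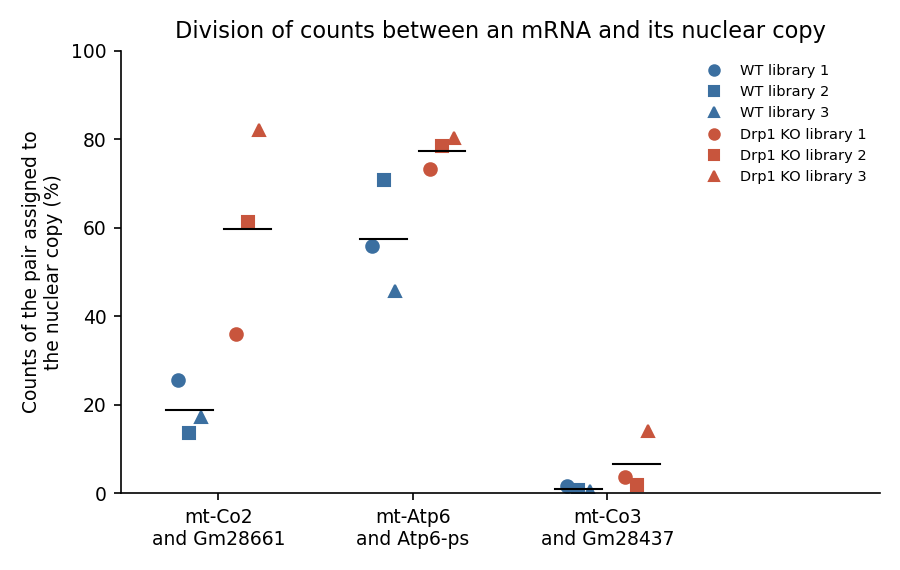
Percent of the counts of an mRNA and its nuclear copy that the read assignment gave to the copy, in each library (blue WT, red Drp1 KO, symbols for libraries 1 to 3, short lines for group means, n = 3). For mt-Co2 the share runs from 13.7% to 25.7% in WT and from 36.1% to 82.2% in Drp1 KO, and all Drp1 KO libraries lie above all WT libraries for each of the 3 pairs.

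The same division was seen for *mt-Atp6*, which encodes the proton channel subunit of ATP synthase. Its own counts gave 127, 274 and 399 CPM in WT and 131, 182 and 178 CPM in *Drp1* KO, a log2 fold change of -0.70 ± 0.32 (SE; edgeR adjusted p = 0.309). *Atp6-ps* took 55.9%, 70.9% and 45.8% of the counts of the pair in WT, and 73.2%, 78.6% and 80.2% in *Drp1* KO, so that in 5 of 6 libraries the copy was given more counts than the gene. Gene and copy together had 288, 941 and 735 CPM in WT and 489, 849 and 897 CPM in *Drp1* KO. The sign of the log2 fold change turned, to 0.19 ± 0.36 (SE; edgeR adjusted p = 0.878). *mt-Co3* lost less to *Gm28437*, which took 1.62%, 0.655% and 0.469% of the pair in WT and 3.58%, 1.90% and 14.0% in *Drp1* KO. With the copy added its log2 fold change was 0.053 ± 0.37 (SE; edgeR adjusted p = 0.978). The nuclear copies *Gm28439* of *mt-Nd4*, *Gm10222* of *mt-Nd4l* and *Gm28438* of *mt-Nd3* were listed with 0 counts in all 6 libraries, and *Gm29216*, which matches part of *mt-Co1*, took at most 0.590% of its pair.

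*mt-Atp8* is on the same transcript as *mt-Atp6*, and 7.47% of its words occur in annotated nuclear transcripts. Nuclear sequence outside these was not searched. Reads of a copy without an annotated transcript would thus be counted as *mt-Atp8*. The gene had 27.2, 80.2 and 76.7 CPM in WT and 45.7, 58.1 and 61.3 CPM in *Drp1* KO, a log2 fold change of -0.16 ± 0.32 (SE; edgeR adjusted p = 0.884). The ratio of the counts of *mt-Atp6* to those of *mt-Atp8* was 4.67, 3.42 and 5.20 in WT and 2.87, 3.13 and 2.90 in *Drp1* KO. The *Drp1* KO libraries lay below all WT libraries, with a log2 difference of -0.56. The other mRNAs outside the list were *mt-Nd3* and *mt-Nd4l*, both of complex I, whose log2 fold changes were -0.37 ± 0.33 and 0.045 ± 0.26 (SE; edgeR adjusted p = 0.672 and 0.973).

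**Figure D4:**
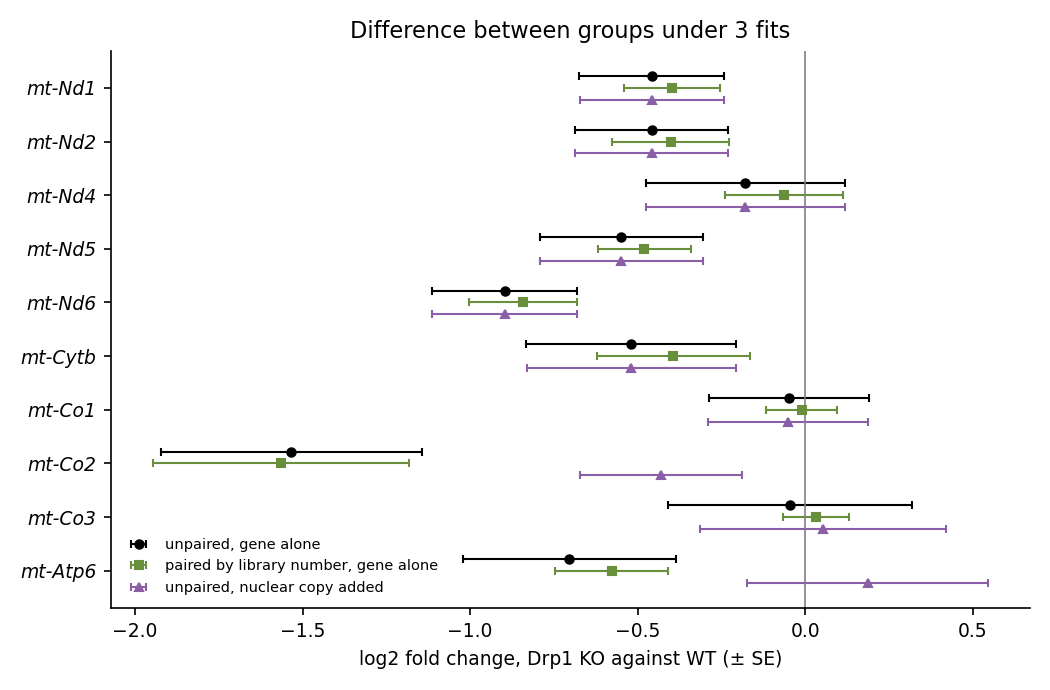
log2 fold change of Drp1 KO against WT for each mRNA with its standard error, from the unpaired fit (circles), from the fit paired by library number (squares), and from the unpaired fit with the counts of the nuclear copy added (triangles). Adding the copy moves mt-Co2 from -1.53 to -0.43 and mt-Atp6 from -0.70 to 0.19, and leaves mt-Nd6 at -0.90.

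Since *mt-Nd6* is the only member on its strand, it was set against the 4 members of the other strand with few words in nuclear transcripts, *mt-Nd1*, *mt-Nd2*, *mt-Nd5* and *mt-Cytb*. The choice of these 4 was made after the values were seen. The ratio of the counts of *mt-Nd6* to their sum does not depend on the scaling between libraries. It was 0.225, 0.199 and 0.221 in WT (mean 0.215 ± 0.0140, SD, n = 3) and 0.177, 0.149 and 0.162 in *Drp1* KO (mean 0.163 ± 0.0143, SD, n = 3). The groups did not overlap, and the log2 difference was -0.40. Leaving out each library in turn moved it between -0.47 and -0.34. The ratio to *mt-Nd5* alone, the neighbour across the 14-base overlap, was 0.453, 0.403 and 0.445 in WT and 0.391, 0.311 and 0.318 in *Drp1* KO. A ratio within 1 strand also parted the groups, in the other direction: that of *mt-Atp8* to the same 4 was 0.0761, 0.0991 and 0.111 in WT and 0.115, 0.133 and 0.130 in *Drp1* KO, a log2 difference of 0.42.

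In TPM the groups overlapped for *mt-Nd6*. There its ratio to the 4 others was 0.595, 0.539 and 0.764 in WT and 0.590, 0.515 and 0.557 in *Drp1* KO, with overlap, and the log2 difference was -0.18. The ratio of *mt-Atp8* to the same 4 remained apart in TPM, at 0.866, 1.170 and 1.251 in WT and 1.51, 1.86 and 1.83 in *Drp1* KO, a log2 difference of 0.67. The deposited TPM divide each count by an effective length that was set per library. For *mt-Nd6*, which is 519 bases long, this length was 293, 287 and 226 bases in WT libraries 1 to 3, and 239, 233 and 240 bases in *Drp1* KO libraries 1 to 3. WT library 3 was thus like the *Drp1* KO libraries in this length. For *mt-Nd1*, of 957 bases, the effective length was 540 to 543 bases in WT and 573 to 580 bases in *Drp1* KO, with no overlap. For *mt-Atp8*, of 204 bases, it was 65.9 to 69.2 bases in WT and 57.4 to 60.4 bases in *Drp1* KO. These did not overlap either, so that the TPM ratio of *mt-Atp8* also holds this difference in length. When counts were scaled by these lengths, the log2 fold change of *mt-Nd6* was -0.74 (edgeR adjusted p = 0.207).

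**Figure D5:**
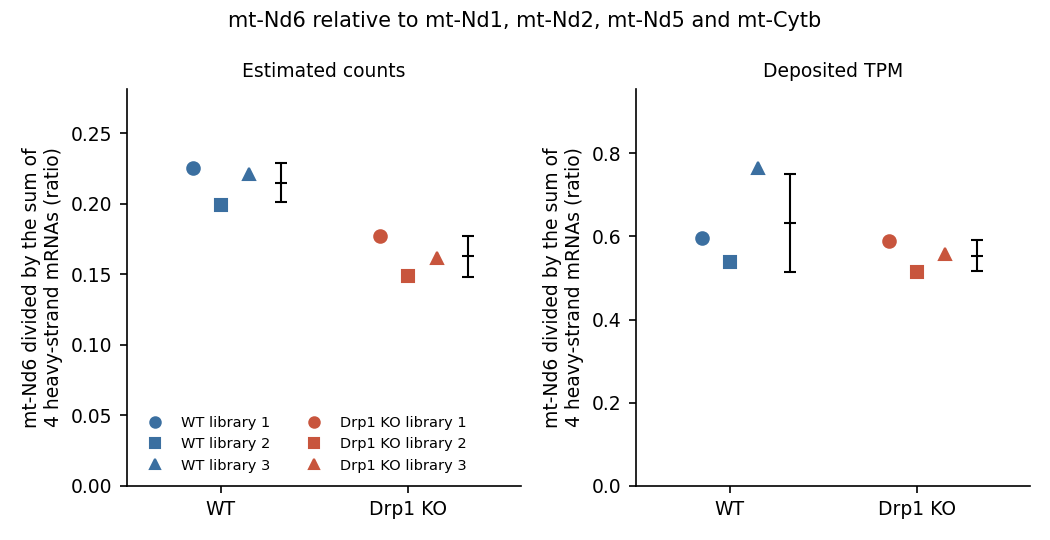
Ratio of mt-Nd6 to the sum of mt-Nd1, mt-Nd2, mt-Nd5 and mt-Cytb in each library, from estimated counts (left) and from deposited TPM (right), with group mean and SD (n = 3). The groups are apart in counts (0.199 to 0.225 against 0.149 to 0.177) and overlap in TPM.

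The share of each mRNA in the sum of the 10 gives their relative composition. *mt-Co1* made up 69.6%, 65.8% and 62.1% of the summed counts in WT and 70.0%, 70.6% and 73.8% in *Drp1* KO. *mt-Nd5* made up 5.83%, 6.04% and 6.06% in WT and 5.08%, 4.41% and 4.62% in *Drp1* KO, and *mt-Nd6* 2.64%, 2.43% and 2.70% in WT and 1.99%, 1.37% and 1.47% in *Drp1* KO. The groups did not overlap for these 3, nor for *mt-Co2* and *mt-Atp6*. With 3 against 3 libraries the exact permutation p cannot go below 0.1, and that was 0.200 after adjustment over the 10 shares. With the nuclear copies added, *mt-Co1* made up 58.3% to 65.4% in WT and 60.6% to 62.6% in *Drp1* KO and overlapped, as *mt-Atp6* then did. *mt-Nd1*, *mt-Nd5*, *mt-Nd6* and *mt-Co2* did not overlap. As shares of the summed TPM, *mt-Nd6* overlapped between the groups, with a difference of -1.65 percentage points in place of -0.980. *mt-Co1* (7.47), *mt-Nd5* (-0.574), *mt-Co2* (-4.20) and *mt-Atp6* (-2.73 percentage points) did not overlap there, and in counts their differences were 5.62, -1.27, -2.04 and -1.46 percentage points. These TPM shares leave out the reads given to the copies. With the copies added, the difference of *mt-Co1* in counts was 0.845 percentage points. Shares are tied to each other, so that a change in any of them moves the rest.

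The genes that make and process these mRNAs were described from a list of 36 nuclear genes, all tested. None passed at an edgeR adjusted p under 0.05 (5 at an unadjusted p under 0.05, beside 16.4% of all genes, and 2 by DESeq2 after adjustment, which called 9.14% of the genes it tested), 24 had a positive and 12 a negative log2 fold change, and the median was 0.10. The 3 with the smallest p were *Fastkd2*, an RNA-binding protein of mitochondrial RNA granules, *Pnpt1*, the polynucleotide phosphorylase of mitochondrial RNA decay, and *Hsd17b10*, a subunit of the RNase P that releases tRNA ends. For *Fastkd2* the WT mean was 9.86 ± 0.387 CPM and the *Drp1* KO mean 14.2 ± 2.28 CPM (SD, n = 3), with an edgeR adjusted p of 0.0869. *Pnpt1* was at 33.8 ± 2.58 and 46.9 ± 8.85 CPM (edgeR adjusted p = 0.112), and *Hsd17b10* at 33.3 ± 2.67 and 43.5 ± 5.09 CPM (edgeR adjusted p = 0.116). With library numbers as pairs these 3 and *Tefm*, the elongation factor of mitochondrial transcription, passed, all higher in *Drp1* KO (4 of 36, beside 6.74% of all genes called higher).

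The nuclear core subunits of the same 4 complexes were a list of 33 genes, all tested. None passed at an edgeR adjusted p under 0.05 (5 at an unadjusted p under 0.05, beside the same 16.4%, and 4 by DESeq2 after adjustment, beside the same 9.14%), 18 had a negative and 15 a positive log2 fold change, and the median was -0.050. Among those with the smallest p were *Atp5f1e* (WT mean 32.0 ± 1.17 CPM, *Drp1* KO mean 42.3 ± 3.71 CPM, SD, n = 3, edgeR adjusted p = 0.0671) and *Atp5pf* (71.4 ± 4.41 and 50.5 ± 10.7 CPM, edgeR adjusted p = 0.106), both of ATP synthase. With pairs 6 of the 33 passed, 4 lower and 2 higher, beside 5.22% and 6.74% of all genes.

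The balance of the 2 genomes was given per complex as the summed TPM of the mitochondrially encoded members over that of the nuclear core subunits. For complex I the ratio was 1.78, 4.34 and 4.58 in WT and 2.14, 2.65 and 2.96 in *Drp1* KO. For complex III it was 0.171, 0.633 and 0.544 in WT and 0.229, 0.279 and 0.293 in *Drp1* KO. For complex IV it was 1.54, 3.39 and 2.98 in WT and 1.77, 2.51 and 2.89 in *Drp1* KO. In each of these, WT library 1 was the lowest and another WT library the highest, so that the groups overlapped. For complex V it was 0.224, 0.505 and 0.832 in WT and 0.210, 0.370 and 0.370 in *Drp1* KO, again with overlap. The log2 differences were -0.36, -0.55, -0.092 and -0.57, and the smallest exact permutation p was 0.4 (adjusted over the 4 complexes, 0.667). Without WT library 1 these differences were -0.80, -1.14, -0.44 and -1.08. Without WT library 3 they were -0.12, -0.31, 0.036 and -0.14, and without WT library 2 they were -0.16, -0.20, 0.13 and -0.50. With all libraries and the nuclear copies added, the difference was -0.025 for complex IV and 0.30 for complex V.

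Among 7939 genes at 10 CPM or more on average, those whose log2 CPM followed the summed level of the 10 mRNAs most closely over the 6 libraries were *Ankrd16* (Pearson r = 0.991), *Chd6* (0.986), *Vamp1* (0.980), *Slc7a15* (0.977) and *Slx4ip* (0.976). With only 6 libraries, which differed in depth as given below, 105 genes had an r over 0.9. The mitochondrial rRNAs were not among the transcripts counted. *Mtrnr2l7*, a nuclear gene that shares 42 of its 419 words with the large rRNA *mt-Rnr2*, was the third most abundant gene of all. Its level was 8768, 19100.2 and 12489 CPM in WT and 8701, 15219.7 and 14904 CPM in *Drp1* KO, a log2 fold change of -0.056 (edgeR adjusted p = 0.967), and its libraries numbered 1 were the lowest as well. *Lars2*, the leucyl-tRNA synthetase of mitochondria, shared 0 words with mitochondrial DNA. Its level was 165 ± 2.57 CPM in the WT and 1619 ± 513 CPM in the *Drp1* KO libraries (SD, n = 3), a log2 fold change of 3.29 (edgeR adjusted p = 0.000198). This level sums all of its transcripts. How much of it comes from reads of repeat sequence in the last exon was not tested.

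Estimated reads per library ran from 23389488 to 32231206. The members' counts ran from 680 to 125310. *Dnm1l* averaged 72.6 ± 2.60 CPM in the WT libraries and 61.9 ± 3.91 CPM in the *Drp1* KO libraries (SD, n = 3). All *Drp1* KO libraries were below all WT libraries, but its log2 fold change of -0.23 did not pass (edgeR adjusted p = 0.248), and counts over all of its transcripts include parts outside the deleted segment. All 8 macrophage markers were found, with a summed level of 13816 to 14228 CPM in WT and 12245 to 14702 CPM in *Drp1* KO. The 8 neutrophil markers summed to 6.59 to 21.7 CPM in WT and 19.4 to 49.4 CPM in *Drp1* KO, with *Camp*, *Ly6g*, *Elane* and *Mpo* under 1 CPM. The 5 dendritic cell markers summed to at most 5.08 CPM, the 5 lymphocyte markers to 4.14 CPM and the 5 fibroblast markers to 2.93 CPM, and the 3 erythroid markers were at 0 counts. The part of these other cells in the levels of the 10 mRNAs was not tested. In bulk RNA, fewer mitochondrial genomes, less RNA per genome and a larger amount of other RNA cannot be told apart.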

How the data were processed

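Libraries of poly(A)-selected RNA were sequenced as paired ends. The authors quantified reads with kallisto 0.46.1 on Ensembl transcripts of GRCm39, and deposited estimated counts, effective lengths and TPM per transcript. The bias and strand settings and the Ensembl release are not given in the sources used here, but effective lengths were not set by length alone (mt-Co2, 684 bases, and mt-Atp6, 681 bases). DESeq2 1.44.0 is named in the submitters' processing notes.

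Transcripts were matched to GENCODE vM39 (116210 of 116873, 99.43%). The unmatched held 0.535% to 0.568% of counts and were left out. Expected counts were summed per gene and rounded. Library totals were 24269850, 26211835 and 28650715 (WT) and 23389488, 32231206 and 32153112 (*Drp1* KO). edgeR 4.0.16 in R 4.3.3 fitted genes with at least 10 counts in total, with TMM and no covariate, by the quasi-likelihood test with Benjamini-Hochberg adjustment. The SE of a log2 fold change was taken from its F value (the change over the root of F). Single values were compared by exact two-sided permutation over libraries. Words of 31 bases of nuclear transcripts were searched in mitochondrial DNA (16299 bases). A nuclear copy is a transcript with over 50% of its words in a mitochondrially encoded mRNA, and 7 were found. Sequences come from GRCm39.

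Libraries of the same number deviated together from their group means (Pearson r 0.539, 0.218 and 0.352 over 12253 genes, against -0.481 to 0.339 for different numbers, where WT library 2 with *Drp1* KO library 3 exceeded its own number), so the numbers, which are in the titles, were taken as pairs in an alternative fit. Other alternatives were DESeq2 1.42.0, limma-voom (limma 3.58.1), other scalings and filters, length-scaled counts, GC offsets, copies added, and each library left out.

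The members and the lists of pathway and marker genes were chosen with earlier results of these data known. Named genes are the members, the 3 other mitochondrially encoded mRNAs, *Dnm1l*, the nuclear copies, *Lars2* for shared words only, list genes that passed or else the 3 of smallest p at 1 CPM or more, and the 5 genes most alike in pattern. A gene that this rule names is not reported here. *Mtrnr2l7*, *Tefm* and the 4 genes set against *mt-Nd6* were picked after their values were seen. The level of *Lars2* is given beyond this rule. In simulated counts for *Drp1* KO against WT (18163 genes, 200 changed 2-fold), 75.5% of the changed genes were recovered and 11 unchanged genes were called.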

Additional observations from a re-analysis of the deposited data

How the results depend on the processing

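With library numbers as a replicate block, 3 members passed against 0 without it, and 6 against 3 met the rule of the study's methods, beside 5.22% and 6.71% of all genes as lower. In that paired fit 4 genes of mitochondrial RNA synthesis, all higher beside 6.74% of all genes, and 6 nuclear core subunits, 4 lower and 2 higher beside 5.22% and 6.74%, passed against 0. No other member changed its call under the block, and *mt-Co3* turned to 0.032. With the copies added and the block, 2 members passed and 5 met the study's rule, beside 5.22% and 6.72% as lower, and the lists had 4 and 6, beside 5.22% lower and 6.79% higher. With the copies added alone, *mt-Co3* was 0.053, *mt-Atp6* 0.19 (0.30 with the block, *mt-Co3* then 0.12), the share of *mt-Nd4* differed by -0.055 and that of *mt-Atp6* by 2.82 percentage points, and the complex V ratio by 0.30. DESeq2 called 1 member (5 by the study's rule), beside 3.89% (5.39%) of all genes as lower, and 2 and 4 list genes, beside 9.14% in either direction. Without a filter beyond 1 count there were 2 members (7), beside 1.74% (4.90%) of all genes as lower, and 1 and 3 list genes, beside 4.43% in either direction. GC offsets gave 1 (7), beside 0.697% (6.0%) of all genes as lower, and with the block 5 (7), beside 5.50% (7.26%), and 3 and 5 list genes, beside 10.8% in either direction. Length-scaled counts gave 0 (5), beside 0.594% (6.16%). Library size only and filterByExpr gave 1 nuclear core subunit each, beside 3.95% and 4.67% of all genes, and limma-voom gave 0.037 for *mt-Co3*. Without libraries 1 of both groups 8 members passed (8), beside 4.56% (7.99%), with 4 and 5 list genes beside 10.5% in either direction, and the share of *mt-Nd4* differed by -0.29. With each library left out in turn, members called ran from 0 to 8 and by the study's rule from 2 to 8. The 8 came without WT library 1, beside 1.20% (6.20%) of all genes as lower. List genes ran from 0 to 2 and from 0 to 3, the highest without *Drp1* KO library 1, beside 4.97% of all genes. The log2 fold changes ran from -0.52 to 0.038 for *mt-Nd4*, -0.71 to -0.23 for *mt-Nd1*, -0.73 to -0.28 for *mt-Nd2*, -0.83 to -0.33 for *mt-Nd5*, -1.15 to -0.74 for *mt-Nd6*, -0.87 to -0.23 for *mt-Cytb*, -1.92 to -1.21 for *mt-Co2*, -1.04 to -0.30 for *mt-Atp6*, -0.29 to 0.18 for *mt-Co1* and -0.39 to 0.24 for *mt-Co3*, the summed level from -0.46 to 0.094, the share of *mt-Nd4* from -0.149 to 0.419 percentage points, and the complex IV ratio from -0.44 to 0.13. The causes were not tested. *mt-Nd1*, *mt-Nd2*, *mt-Nd5*, *mt-Nd6*, *mt-Cytb* and *mt-Co2* were below 0 in all 19 other settings of the fit.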
